A study of Mus musculus with 9 samples.

Results

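The DNA of 2 nuclear fractions of mouse embryonic stem cells was compared with the unfractionated DNA of the same line, to describe what both fractions gained or lost relative to input. All 9 libraries of the series entered. The 6 fraction libraries were HRS replicates 1 to 3 (high-salt recovered sequences) and Loop replicates 1 to 3, and the 3 inputs were genomic DNA libraries titled D0, D12 and D21. HRS and Loop of the same replicate number were averaged in CPM (counts scaled by the library total) to 1 value, which gave 3 averages against 3 inputs. Of 256148 bins of 10 kb in the fragment tables, the 239616 on chromosomes 1 to 19 were used, and 233479 passed the filter on low counts. Every group was E14Tg2a, a single established line of 129P2 background kept on gelatin with LIF, with no other treatment named in the labels. The titles D0, D12 and D21 are not explained there, and the inputs carry no replicate number. No label says that replicates were separate cultures, and the p-values then reflect only how far these libraries spread, which may be technical. All libraries are genomic DNA, which holds no expression level by which the cell type could be checked.

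In this assay nuclei are extracted with salt strong enough to strip most histones, so that DNA spreads out as loops from an insoluble residue. The restriction enzyme StyI then cuts the DNA, and fragments still attached to the residue (HRS) are separated from those set free (Loop). Each fragment is read as short tags next to its StyI ends, so a count belongs to a fragment and not to its length. If every fragment went to one fraction or the other and were recovered alike, what one fraction gained the other would lose. A bin above input in both fractions, or below it in both, therefore differs between the fractionated and the unfractionated DNA. HRS and Loop may differ from each other there as well. How much DNA each fraction yielded is not given in the sources used here, so the average weights them equally and does not rebuild the whole nucleus. All values are shares of a library.

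The fragment tables summed to between 39.1 M (HRS replicate 3) and 62.9 M counts (Loop replicates 1 and 2), and the median bin held 108 to 206 counts per library. Libraries of 1 group differed by more than counting noise, with a chi-square of 2.06 to 7.16 per degree of freedom between pairs. The largest values all involved replicate 3 of HRS or of Loop, at 5.03 to 7.16.

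The fractions together held more of the very short StyI fragments than input and fewer of the long ones. Fragments of up to 100 bp took 12%, 12.6% and 13.3% of the counts in HRS replicates 1 to 3. They took 26.3%, 32.7% and 26.0% in the Loop replicates, and 10.3%, 11.1% and 11.1% in the D0, D12 and D21 inputs. All 6 fraction libraries lay above all inputs, and each Loop library lay far above each HRS library. The averages held 20.5% ± 1.89 (SD, n = 3) against 10.8% ± 0.482 (SD, n = 3) in input, a log2 ratio of 0.92 ± 0.13 (SE) with an edgeR adjusted p of 1.20e-06. Fragments of 101 to 200 bp were also higher in all 6 fraction libraries, at 19.7% ± 3.21 (SD, n = 3) in the averages against 15.0% ± 0.329 (SD, n = 3), with an edgeR adjusted p of 0.00516. Thus 2 of the 6 length classes were higher (33.3%) and 3 were lower (50.0%).

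The loss lay in the longer fragments. Fragments of 501 to 1000 bp took 20.4%, 20.5% and 19.7% of the counts in HRS, 15.1%, 13.6% and 8.94% in Loop, and 22.9%, 21.9% and 22.2% in input. All 6 fraction libraries were below all inputs, by a little in HRS and by more in Loop, and the averages gave a log2 ratio of -0.45 ± 0.11 (SE) with an edgeR adjusted p of 0.00147. The class of 1001 to 2000 bp showed the same order, with a log2 ratio of -0.46 and an edgeR adjusted p of 0.00516. Above 2000 bp the averages were lower too (log2 ratio -0.44, edgeR adjusted p 0.0343), but HRS held 5.67% ± 0.615 (SD, n = 3) against 5.91% ± 0.499 (SD, n = 3) in input, so there the HRS libraries overlapped input. Fragments of 201 to 500 bp did not pass the test (log2 ratio -0.15, edgeR adjusted p 0.0953). Followed in steps of 25 bp, the average was 5.58 times input at 1 to 25 bp, where the 3 averages spread from 1.61 to 10.5, and it first fell under input at 251 to 275 bp. In an exact permutation test (two-sided) each class without overlap of averages and inputs had p = 0.1, the smallest that 3 values against 3 can give. Without the D21 input only 1 class passed in each direction (up to 100 bp and 501 to 1000 bp), and the call above 2000 bp was also lost without replicate 1, the D0 input or the D12 input.

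**Figure D1:**
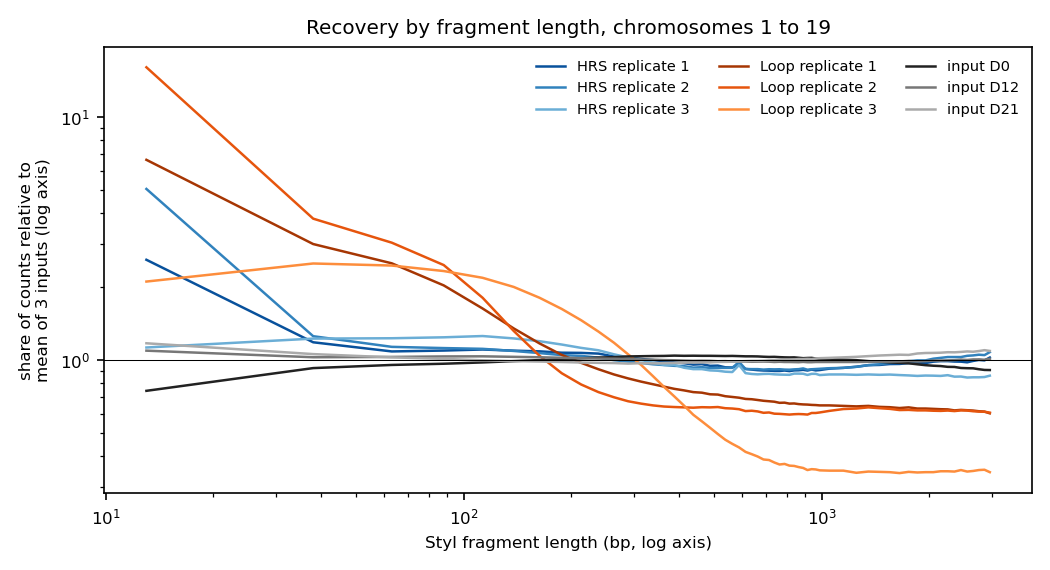
Share of counts by StyI fragment length relative to the mean of the 3 inputs (log y axis) against length in bp (log x axis), 1 line per library. At 1 to 25 bp the lines spread widely, with means of 8.25 in Loop and 2.92 in HRS, and Loop replicate 3 lies there below HRS replicates 1 and 2. From 26 to 100 bp each Loop line is above each HRS line, and all Loop lines fall below 1 as fragments lengthen.

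Across the genome 34450 bins were higher in the averages (14.8% of those tested) and 20427 were lower (8.75%), by edgeR with TMM scaling at an adjusted p of 0.05. The changes were small. The median called bin was 1.40-fold higher or 1.41-fold lower, and 1140 higher and 481 lower bins passed 2-fold. The higher bins were rich in short fragments: in the median one, 48.7% of the counts came from fragments of up to 200 bp, against 29.9% in all tested bins and 0.315% in the lower bins. The numbers of calls depend on the scale and on single inputs. With library totals in place of TMM, 22600 bins were higher and 38852 lower, so the share of calls that were higher went from 62.8% to 36.8%, and the median log2 ratio of all tested bins from 0.00 to -0.12. Without the D12 input the counts were 19531 and 9633, and without the D21 input 17875 and 8829.

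In CPM, most higher calls did not lie above input in both fractions, whereas most lower calls lay below it in both. CPM uses library totals, on which the median log2 ratio of all tested bins was -0.12, while the calls used TMM. Positions in CPM are thereby tilted toward below, and the 2 directions cannot be compared directly. In 8324 bins (3.57% of those tested) all 6 fraction libraries were above all 3 inputs in CPM, and 8144 of these were called, which is 23.6% of the higher calls. Another 31.8% of the higher calls had only the HRS libraries above all inputs, 27.5% had only the Loop libraries above, and in 10.7% HRS was above and Loop below. All 6 fraction libraries were below all inputs in 28698 bins (12.3% of those tested). Of these 57.0% were called lower, whereas 97.8% of the bins with all 6 above were called higher. The 16367 called made up 80.1% of the lower calls. Between HRS and Loop themselves 42237 bins were higher in HRS (18.2%) and 48222 lower (20.8%). Of the lower calls of the averages, 84.5% passed neither way in that comparison, against 39.6% of the higher calls.

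The bins shared by both fractions differed in their StyI fragments. The median bin with all 6 libraries above input held 14 fragments, with 54.4% of its counts in fragments of up to 200 bp and a leading fragment of 80 bp, where leading means the fragment with the most counts over the 9 libraries. The median bin with all 6 below held 11 fragments, with 9.24% of its counts in short fragments and a leading fragment of 302 bp. Across the 233479 tested bins the log2 ratio of the averages over input correlated at 0.58 with the share of counts in short fragments and at 0.25 with the number of fragments. These are descriptions across bins, which share libraries, depth and the length effect above.

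**Figure D2:**
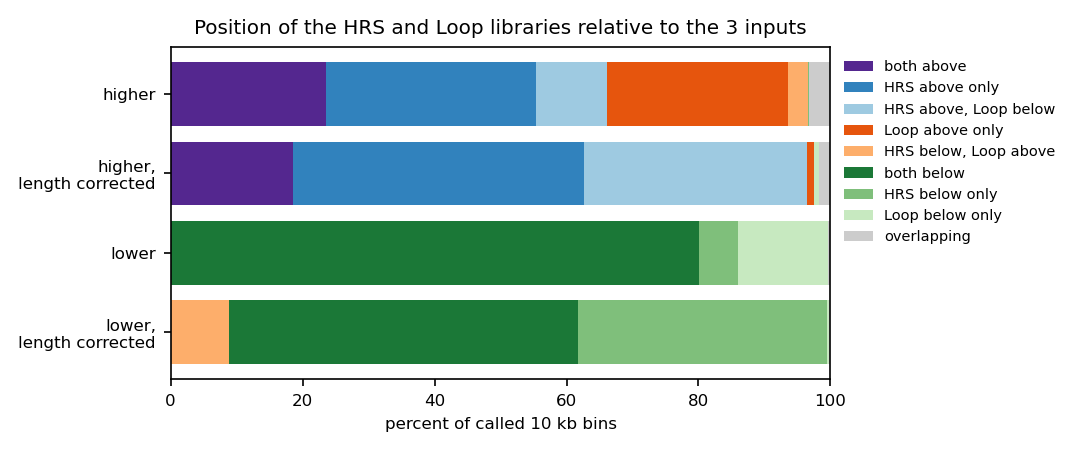
Share of the called 10 kb bins, in percent, by the position of the 3 HRS and 3 Loop libraries relative to all 3 inputs, for higher and lower calls, without and with the correction for fragment length. Above or below means that all 3 libraries of a fraction lie on that side of all inputs in CPM, which uses library totals, while the calls used TMM. Without the correction both below takes 80.1% of the lower calls, and both above 23.6% of the higher calls. With it these shares are 53.0% and 18.5%.

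Because length differed between fractions and input, the bins were also fitted against the count expected in each library from the lengths of their fragments. With this correction 20387 bins were higher (8.73%) and 7131 lower (3.05%). Of the higher calls 15587 were called in both fits, 45.2% of the uncorrected and 76.5% of the corrected ones. Of the lower calls 4159 were called in both, 20.4% and 58.3%, and 6 higher calls turned to lower ones. The correlation of the log2 ratio with the share of short fragments went to -0.02 and that with the number of fragments to -0.07. The expected counts were taken from the length profiles of these same libraries, so the loss of the first correlation was largely set in advance. What was left was largely HRS: 80.6% of the corrected higher calls were also higher in HRS than in Loop without correction, and 18.5% had all 6 fraction libraries above input in CPM. Of the corrected lower calls, 57.1% were lower in HRS than in Loop without correction and 42.5% passed neither way. In CPM 53.0% of them had all 6 fraction libraries below input and 37.7% only the HRS libraries. Counted as count over expected, all 6 fraction libraries were above all inputs in 3839 bins (1.64%), 2690 of them called, and below in 8925 bins (3.82%), 3235 of them called. The corrected counts rest on single libraries more than the uncorrected ones do. They were 11129 and 1911 without the D12 input and 9215 and 1210 without the D21 input, and the lower calls were 2919 without replicate 1 and 3943 without replicate 2.

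Each fraction was also set against input on its own, and these comparisons share the 3 inputs. HRS had 36371 bins above input (15.6%) and 22019 below (9.46%), and with the length correction 37044 (15.9%) and 23314 (10.0%). Loop had 51133 bins above (22.0%) and 42892 below (18.4%), but with the length correction 619 (0.266%) and 183 (0.0787%). HRS over Loop gave 35632 bins higher (15.4%) and 20282 lower (8.75%) with the correction. The count of Loop calls therefore depended on the correction far more than the count of HRS calls did.

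The named bins were the 10 strongest regions in each direction among called bins with all 6 fraction libraries on the same side of all inputs and at least the median mean CPM of 3.32. A further 10 in each direction were taken where no single fragment held over 50% of the counts and the call held with length corrected. This gave 17 higher and 10 lower bins, named by position in mm9, since no annotation of that build was used here. The higher ones spanned 2.71-fold to 44.8-fold and the lower ones 1.73-fold to 1.88-fold. All 17 and all 10 were also called with length corrected, which was a condition for the second list. Of the higher bins 15 were higher in HRS than in Loop and 2 passed neither way. The 10 lower bins had edgeR adjusted p-values of 0.193 to 0.965 between HRS and Loop, which does not show that the fractions were alike. With length corrected 5 of them were lower in HRS than in Loop, at log2 ratios of -0.66 to -0.51.

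The strongest gain rested on 1 fragment. The bin at 87690001 to 87700000 on chromosome 7 held 433, 826 and 853 CPM in HRS replicates 1 to 3, 37.0, 16.3 and 31.1 in the Loop replicates, and 9.36, 8.38 and 8.95 in the D0, D12 and D21 inputs. Both fractions were clear of input, HRS by far the more. The averages were 44.8-fold higher (log2 ratio 5.48 ± 0.30 SE, edgeR adjusted p 3.45e-09). A single StyI fragment of 599 bp, from 87697319 to 87697918, held 96.3% of the counts of its 19 fragments. Without it the bin held 7.87 CPM in the averages and 7.64 in input, and the call was lost (edgeR adjusted p 0.126).

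The second was a bin at 20010001 to 20020000 on chromosome 8, where all counts lay on a fragment of 28 bp. It held 5.28, 7.89 and 0.768 CPM in HRS, 7.62, 17.8 and 0.562 in Loop, and 0.145, 0.159 and 0.272 in input, which is 9, 9 and 15 counts. Replicate 3 of both fractions was lowest. That all 6 lay above input was a condition of the choice, and this bin reached the median CPM only through the fractions, as did the named bins at 23370001 on chromosome 13, 55810001 and 112780001 on chromosome 12, 173410001 on chromosome 1 and 52910001 on chromosome 3. The averages were 37.2-fold higher (edgeR adjusted p 8.42e-05) and 13.8-fold higher with length corrected. HRS and Loop did not differ past the threshold here (log2 ratio -0.91 ± 0.61 SE, edgeR adjusted p 0.244).

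The next strongest bins were carried by HRS. At 23370001 to 23380000 on chromosome 13 the HRS replicates held 18.8, 16.1 and 55.1 CPM, the Loop replicates 2.05, 2.77 and 1.91, and the inputs 1.48, 1.87 and 1.61. Loop lay just above the inputs and HRS replicate 3 stood highest, and the averages were 10.7-fold higher (edgeR adjusted p 1.65e-06). A fragment of 99 bp carried 83.9% of the counts, and without it the bin held 2.11 CPM in the averages and 0.808 in input. At 55810001 to 55820000 on chromosome 12 HRS held 6.75, 5.68 and 17.3 CPM, Loop 1.34, 2.37 and 1.62, and input 0.965, 1.24 and 0.978. The averages were 6.0-fold higher (edgeR adjusted p 7.15e-06), again with HRS replicate 3 highest, and here a fragment of 96 bp held all counts.

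On chromosome 18 the bin at 17920001 to 17930000 held 218, 167 and 202 CPM in HRS, 49.1, 45.0 and 62.1 in Loop, and 37.2, 43.3 and 34.5 in input. It was 3.50-fold higher, but 95.5% of its counts lay on a fragment of 456 bp, and without that fragment it held 3.86 CPM against 4.32 in input and lost the call (edgeR adjusted p 0.769). On chromosome 4 the bin at 3010001 to 3020000, near the start of the assembled sequence, held 26.2, 21.7 and 26.9 CPM in HRS, 11.3, 11.1 and 12.1 in Loop, and 5.73, 6.19 and 6.77 in input. Both fractions were clear of input and the averages were 3.17-fold higher (edgeR adjusted p 1.38e-07). There 87.4% of the counts lay on a fragment of 2209 bp, and without it the edgeR adjusted p was 0.0828. In all, 7 of the 17 higher bins had a fragment with over 50% of the counts. Tags this short can match several places in the genome, and how such tags were treated is not given in the sources used here.

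Among bins that no fragment dominated, the strongest lay on chromosome 7 at 53210001 to 53220000. HRS held 12.6, 19.1 and 22.6 CPM there, Loop 9.75, 10.1 and 9.59, and input 5.0, 4.51 and 4.62. Each HRS library was above each Loop library and each Loop library was above each input. The averages were 3.22-fold higher (log2 ratio 1.69 ± 0.14 SE, edgeR adjusted p 3.08e-07), and 2.75-fold with length corrected. Its leading fragment held 21.2% of the counts of 16 fragments, and without it the bin held 10.2 CPM against 4.52.

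The bin at 173410001 to 173420000 on chromosome 1 held 3.78, 3.39 and 6.15 CPM in HRS, 4.04, 4.45 and 4.12 in Loop, and 1.5, 1.54 and 1.65 in input. HRS and Loop overlapped each other and both were clear of input, with a log2 ratio of HRS over Loop of 0.06 ± 0.19 (SE) and an edgeR adjusted p of 0.829. The averages were 3.0-fold higher (edgeR adjusted p 1.45e-06) and 1.70-fold higher with length corrected, where HRS was above Loop (log2 ratio 1.2, edgeR adjusted p 3.14e-04). A 71 bp fragment accounted for 71.7% of its counts, and with fragments of up to 200 bp left out the call was lost (edgeR adjusted p 0.356).

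In the other higher bins HRS was above Loop and Loop above input, with log2 ratios of Loop over input from 0.32 (chromosome 3 at 153560001) to 0.86 (chromosome 8 at 129450001). On chromosome 11 the bin at 87240001 to 87250000 held 20.1, 18.8 and 21.3 CPM in HRS, 6.49, 6.52 and 6.66 in Loop, and 4.94, 5.09 and 4.62 in input. It was 2.95-fold higher (edgeR adjusted p 8.06e-08). On chromosome 3 the bin at 96200001 to 96210000 held 23.6, 18.1 and 26.0 CPM in HRS, 8.57, 9.41 and 8.34 in Loop, and 6.93, 6.08 and 5.71 in input. The 3 groups did not overlap, and the averages were 2.72-fold higher. The remaining bins lay on chromosomes 2 (57030001), 3 (52910001 and 153560001), 5 (108330001), 8 (129450001), 11 (101510001) and 12 (112780001), and were 2.71-fold to 2.99-fold higher.

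**Figure D3:**
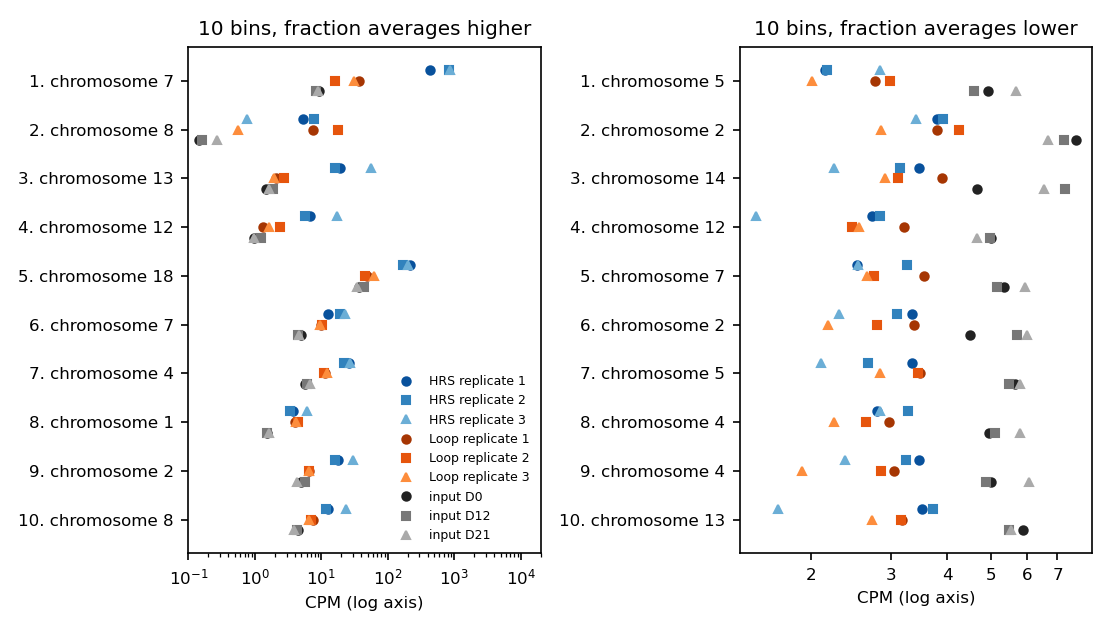
CPM of each library (log axes) in the 10 strongest higher bins (left) and the 10 strongest lower bins (right), ranked from the top and labelled by chromosome. Blue symbols are HRS, orange ones Loop and grey ones input, with circles, squares and triangles for replicates 1, 2 and 3 or D0, D12 and D21. HRS stands apart from Loop in most higher bins, and HRS and Loop overlap in the lower ones.

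In the lower bins HRS and Loop overlapped or nearly so, and the losses were of like size. The strongest lay on chromosome 5 at 112460001 to 112470000. HRS held 2.15, 2.17 and 2.84 CPM, Loop 2.77, 2.99 and 2.01, and input 4.91, 4.59 and 5.67. HRS and Loop overlapped fully and every input was above them. The averages were 1.88-fold lower (log2 ratio -0.91 ± 0.11 SE, edgeR adjusted p 2.47e-05), and 1.47-fold lower with length corrected.

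On chromosome 2 the bin at 165350001 to 165360000 held 3.8, 3.91 and 3.41 CPM in HRS, 3.8, 4.24 and 2.86 in Loop, and 7.69, 7.23 and 6.68 in input. It was 1.82-fold lower, with a log2 ratio of HRS over Loop of 0.01 ± 0.16 (SE). Neither of these bins held a fragment of up to 200 bp. On chromosome 14 the bin at 23400001 to 23410000 held 3.47, 3.14 and 2.25 CPM in HRS, 3.90, 3.11 and 2.91 in Loop, and 4.65, 7.28 and 6.54 in input. The inputs spread more there, with D0 lowest, and the averages were 1.81-fold lower (1.63-fold with length corrected, the most of the 10). The other lower bins lay on chromosomes 12 (31070001), 7 (143060001), 2 (124480001), 5 (119650001), 4 (47320001 and 62720001) and 13 (10130001), at 1.73-fold to 1.77-fold. The 10 bins held 12 to 14 fragments, none with over 50% of the counts.

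Higher calls ran on along the chromosome more than lower calls did, but they were also more numerous (14.8% against 8.75% of tested bins). Of the higher bins 59.1% adjoined another higher bin and 30.4% of the lower bins another lower one. In all, 267 runs of higher calls against 0 runs of lower calls reached 10 bins. More frequent calls adjoin more often by number alone, and the share due to this was not computed. The longest runs of higher calls were HRS stretches in which Loop was at input. The longest covered 410 kb on chromosome 10 (127670001 to 128080000), with 507, 474 and 572 CPM in HRS, 269, 273 and 270 in Loop, and 284, 275 and 262 in input. Loop and input overlapped and HRS lay above both, and 4 of its 41 bins had all 6 fraction libraries above input. Runs of 350 kb on chromosome 19 (8760001 to 9110000) and 340 kb on chromosome 15 (102030001 to 102370000) had the same shape.

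On chromosome 13 a run of 330 kb (23360001 to 23690000) held 490, 466 and 564 CPM in HRS, 92.1, 89.1 and 87.6 in Loop, and 120, 117 and 113 in input. HRS was far above input and Loop below it, without overlap. The averages were 298 ± 24.8 CPM (SD, n = 3) against 117 ± 3.64 (SD, n = 3), and 2 of its 33 bins had all 6 fraction libraries above input. On chromosome 8 a run of 270 kb (87350001 to 87620000) held 461, 454 and 723 CPM in HRS, 227, 236 and 285 in Loop, and 247, 231 and 214 in input, with replicate 3 highest in both fractions.

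Stretches gained in both fractions were short. Joining only called bins with all 6 fraction libraries above input gave 190 runs of 3 bins or more, the longest of 60 kb. With calls and positions both corrected for length there were 18 such runs, the longest of 50 kb. On chromosome 15 (25620001 to 25680000) such a run held 78.6, 68.8 and 70.7 CPM in HRS, 59.8, 61.8 and 62.0 in Loop, and 48.2, 46.0 and 50.3 in input, so the 3 groups stood in that order without overlap. On chromosome 16 (20310001 to 20370000) HRS held 42.7, 37.4 and 42.2 CPM, Loop 41.1, 44.8 and 44.8, and input 32.6, 30.8 and 30.8. There HRS and Loop overlapped and both were above input. With length corrected the mean log2 ratio went from 0.59 to 0.35 in the run on chromosome 15 and from 0.55 to 0.30 in that on chromosome 16.

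Stretches lost from both fractions were as short, with 342 runs of 3 bins or more, and 20 with calls and positions corrected for length. The longest, 60 kb on chromosome 1 (190040001 to 190100000), held 15.7, 17.7 and 10.5 CPM in HRS, 17.3, 17.0 and 15.3 in Loop, and 22.5, 24.2 and 25.6 in input. The fractions overlapped each other and lay below each input. Another of 60 kb on chromosome 19 (26750001 to 26810000) held 16.0, 16.4 and 15.1 CPM in HRS, 17.0, 14.4 and 13.8 in Loop, and 21.3, 25.3 and 25.5 in input. With length corrected the mean log2 ratio went from -0.55 to -0.39 in the run on chromosome 1 and from -0.54 to -0.31 in that on chromosome 19. The longest run of all lower calls was 80 kb on chromosome 12 (30320001 to 30400000), at 32.1 ± 1.65 CPM (SD, n = 3) in the averages against 47.9 ± 3.89 (SD, n = 3). In it HRS was lowest (25.5, 31.7 and 24.8) and Loop (36.2, 36.4 and 38.3) lay between HRS and input (43.6, 51.2 and 48.8).

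Bins with many StyI sites were called higher more often. The share of bins called higher was 6.13% with 1 to 5 fragments, 10.5% with 6 to 10, 15.5% with 11 to 15, 21.2% with 16 to 20, 28.6% with 21 to 30 and 43.6% with over 30. With length corrected it lay between 7.32% and 8.91% in these 6 classes. The share called lower, in the same order, was 7.32%, 10.6%, 9.52%, 4.92%, 1.11% and 0.348%. With length corrected it was 0.605%, 1.58%, 3.54%, 5.26%, 5.54% and 3.14%, so lower calls were then rarest in bins with few fragments. These shares were not tested. Summed over the class, bins with over 30 fragments took 0.404%, 0.414% and 0.486% of the counts in HRS, 0.551%, 0.590% and 0.620% in Loop, and 0.442%, 0.423% and 0.425% in input. Loop was above input and HRS overlapped it. This class was the 1 called higher of 6 (16.7%; log2 ratio 0.25 ± 0.07 SE, edgeR adjusted p 0.0126), and 2 were called lower (33.3%), those of 6 to 10 and 11 to 15 fragments, at log2 ratios of -0.10 and -0.03 (edgeR adjusted p 0.0495 each). With length corrected the log2 ratio of the densest class was -0.02 (edgeR adjusted p 0.674). No class passed without any 1 of the inputs or without replicate 2, where the edgeR adjusted p of the densest class was 0.0583 to 0.156.

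The ends of the chromosomes were called higher more often than the rest. In the first 2 Mb of assembled sequence 20.0% of the tested bins were higher and 7.02% lower, in the last 2 Mb 19.9% and 6.60%, and elsewhere 14.6% and 8.81%. With length corrected the higher shares were 12.7%, 12.5% and 8.61%. These shares were not tested.

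Whole chromosomes differed little from input. Only chromosome 17 passed, as 1 of 19 higher (5.26%) and 0 lower by edgeR on library totals, where chromosome 7 was higher at an unadjusted p of 0.00952 and chromosomes 18 and 12 lower at 0.0304 and 0.0415. It held 4.2%, 4.16% and 4.24% of the counts in HRS, 4.02%, 4.03% and 3.95% in Loop, and 4.01%, 3.99% and 3.99% in input. HRS was above input and Loop overlapped it, and the averages held 4.10% ± 0.00756 (SD, n = 3) against 4.0% ± 0.0144 (SD, n = 3), a log2 ratio of 0.04 (edgeR adjusted p 0.0224). The call was lost under 9 of 10 alternatives, among them leaving out replicate 1, replicate 2 or any 1 input. Chromosome 7 was the 1 chromosome with all 6 fraction libraries above all inputs, at 6.33%, 6.35% and 6.41% in HRS, 6.38%, 6.39% and 6.31% in Loop, and 6.25%, 6.28% and 6.24% in input, but its averages did not pass (log2 ratio 0.02, edgeR adjusted p 0.0904).

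Chromosomes 8 and 11 stood out by 1 replicate number. Chromosome 11 held 6.78%, 6.97% and 8.70% of the counts in HRS, 6.60%, 6.81% and 7.96% in Loop, and 6.88%, 6.44% and 6.39% in input. Replicate 3 was highest in both fractions, and the other 4 fraction libraries lay between 6.60% and 6.97%. Chromosome 8 held 5.49%, 5.59% and 6.55% in HRS, 5.60%, 5.68% and 6.73% in Loop, and 5.72%, 5.47% and 5.49% in input, with replicate 3 again highest in both. Relative to input the averages were 0.998, 1.014 and 1.194 on chromosome 8 and 1.019, 1.049 and 1.268 on chromosome 11, and neither passed (edgeR adjusted p 0.382 and 0.252). Of the tested bins 27.0% were called higher on chromosome 11 and 19.9% on chromosome 8, and with both chromosomes left out 31628 bins were higher and 20983 lower. The lowest averages were on chromosomes 18 and 12, at 0.957 and 0.958 times input, followed by 14, 3, 1 and 6 at 0.964 to 0.969, and on all of these replicate 3 was the farthest from input. On chromosomes 16 and 18, however, all 6 fraction libraries were below all inputs. Without replicate 3, 2 chromosomes were called higher and 1 lower, which was chromosome 18 (log2 ratio -0.04, edgeR adjusted p 0.0183).

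**Figure D4:**
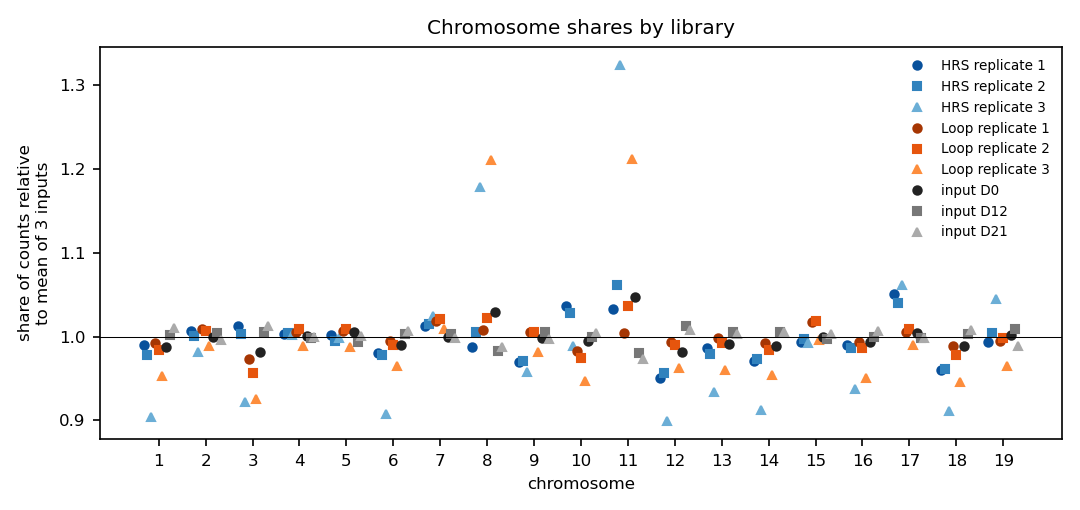
Share of counts on each chromosome relative to the mean of the 3 inputs, 1 point per library. Replicate 3 of HRS and of Loop (triangles) lies at 1.178 and 1.210 on chromosome 8 and at 1.324 and 1.212 on chromosome 11, apart from the other libraries.

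The repeat tables, a second readout of the same libraries that assigns counts to Repbase names, gave 50 names higher (17.1% of 293 tested) and 36 lower (12.3%) in the averages. These calls need care, since the repeat files are marked A (HRS replicates 1 and 3, and replicate 2 of Loop) or B (HRS replicate 2, and replicates 1 and 3 of Loop), and the labels do not explain these letters. Each average holds 1 table of each letter, so a difference between letters does not add to the spread of the averages. Of the 50 higher names, 24 had all 6 fraction tables above all inputs (8.19% of those tested), 20 had only the tables of letter B above, and 6 only those of letter A. Of the 36 lower names 28 had all 6 tables below, a pattern found in 41 names (14.0%). With the 9 libraries in 1 fit, where that difference does enter the spread, 10 names were higher and 9 lower. Of the 20 called names chosen by size, that fit called RLTR1IAP_MM, RLTR13B2, IAPEYI, IAPEY5_LTR, L1MdGf_II and C573, and the other names lost the call. In the names it called, neither fraction passed when set alone against input. Each of those fits also mixes tables of both letters, so a difference between letters enters its spread too. In those fits the edgeR adjusted p was 0.0868 to 0.137 for HRS and 0.0933 to 0.112 for Loop.

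Long terminal repeats (LTRs) are the ends of endogenous retroviruses and hold their promoters. RLTR13D3 held 1022, 1813 and 1032 CPM of the repeat table in HRS, 1606, 1008 and 1628 in Loop, and 881, 964 and 838 in input. All 6 fraction tables were above input, those of letter B more so, and the averages were 1.56-fold higher (log2 ratio 0.64 ± 0.06 SE, edgeR adjusted p 7.76e-04, but 0.135 with the 9 libraries in 1 fit). Among 22 names of the RLTR13 group 10 were higher and 1 lower, with a median log2 ratio of 0.21 against 0.00 over all names. The groups were formed after the values were seen. The 1 lower name, RLTR13B2, held 515, 417 and 542 CPM in HRS, 466, 575 and 357 in Loop, and 765, 721 and 711 in input, without overlap, and was 1.48-fold lower (edgeR adjusted p 7.76e-04).

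RLTR1IAP_MM, an LTR of the intracisternal A particle (IAP) retroviruses, held 71.5, 73.9 and 74.6 CPM in HRS, 77.6, 69.2 and 66.4 in Loop, and 37.1, 40.6 and 54.6 in input. The fractions overlapped each other and lay above each input, and the averages were 1.69-fold higher (edgeR adjusted p 0.00708). RLTR30D_MM (1.76-fold), RLTR12G (1.67-fold) and RLTR12B2 (1.59-fold) also had all 6 tables above input. With the 9 libraries in 1 fit their edgeR adjusted p-values were 0.0707, 0.145 and 0.0707. RLTR19A2 was 3.0-fold higher (edgeR adjusted p 0.0256), but it held under 11 CPM in every table and lost the call without the D0 or the D21 input. RLTR12B2 lost it without the D0 or D21 input, replicate 1 or replicate 3.

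Other higher names rose in the tables of 1 letter. RLTR2IAP_MM held 4626, 14207 and 4522 CPM in HRS, 12283, 4376 and 11821 in Loop, and 5082, 5055 and 5964 in input. The 3 tables of letter B were far above input and the 3 of letter A below the input mean, and the averages were 1.66-fold higher. In IAPLTR3 (1.82-fold) and ERVB4_1-LTR_MM (1.77-fold) too the B tables were above input and the A tables overlapped it or lay below. The satellites had the opposite one. SATMIN, the minor satellite of mouse centromeres, held 294, 64.5 and 441 CPM in HRS, 58.5, 282 and 37.3 in Loop, and 80.3, 138 and 128 in input. Its averages were 1.76-fold higher (edgeR adjusted p 0.0214), with the A tables above and the B tables below every input, and the call was lost without replicate 3 (edgeR adjusted p 0.0536). GSAT_MM, the major satellite next to the centromeres, held 44200, 6534 and 39443 CPM in HRS, 6925, 38196 and 2981 in Loop, and 8841, 11478 and 20912 in input. The averages did not pass (log2 ratio 0.78 ± 0.28 SE, edgeR adjusted p 0.0685), but did without the D21 input (edgeR adjusted p 0.00110). Within 1 replicate number the letter cannot be told apart from the fraction. Across the 3 numbers, however, these values followed the letter and not the fraction. GSAT_MM held 44200, 39443 and 38196 CPM in the A tables and 6534, 6925 and 2981 in the B tables. The single HRS and Loop values of such names can therefore not be read as differences between the fractions. The cause of the split by letter was not tested.

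Of 17 names that begin with IAP, 8 were lower and 1 higher, with a median log2 ratio of -0.20. This tally leaves out RLTR1IAP_MM and RLTR2IAP_MM, the higher names above, and gives each name the same weight. IAPLTR1a_I_MM and IAPEZI, which held the most counts of these names (52428 and 42373 CPM in input), passed neither way. Their log2 ratios were -0.01 and 0.23, with edgeR adjusted p-values of 0.938 and 0.0985. The tally is therefore no measure of IAP DNA as a whole. IAPEYI, the internal part of an IAP element, held 4577, 3983 and 4638 CPM in HRS, 4400, 4773 and 3276 in Loop, and 6383, 6288 and 7411 in input. Both fractions were below input and overlapped each other, and the averages were 1.52-fold lower (log2 ratio -0.60 ± 0.08 SE, edgeR adjusted p 0.00177). Set alone against input, in fits that mix both letters, neither HRS (edgeR adjusted p 0.0868) nor Loop (0.0933) passed. IAPEY5_LTR was 1.67-fold lower and IAPLTR4 1.48-fold, the second with HRS replicate 1 inside the range of input. L1 elements, the autonomous LINE retrotransposons of mouse, moved both ways. L1MdGf_II held 1255, 1376 and 1135 CPM in HRS, 1496, 1394 and 1335 in Loop, and 1831, 1863 and 2616 in input, and was 1.53-fold lower (edgeR adjusted p 0.0108). All 6 tables were below input although the inputs spread widely. Of 24 L1Md names 6 were lower, all with 6 tables below input, and 2 higher, both with only the tables of letter B above, and the median log2 ratio was -0.06. Outside the L1Md names, and chosen after their values were seen, L1_MM was 1.5-fold higher with all 6 tables above input (edgeR adjusted p 0.00167). L1Lx_I and L1Lx_II were 1.47-fold and 1.36-fold higher, with only the tables of letter B above, and L1Lx_III was 1.13-fold lower with all 6 below.

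C573 (1.61-fold), RLTR28_MM (1.51-fold) and RLTR30D2_MM (1.46-fold) were lower in all 6 tables. RLTR16C_MM (1.72-fold) and IAPEY2_LTR (1.53-fold) were lower in the averages with tables that overlapped input. Of these, RLTR28_MM and RLTR30D2_MM lost the call without the D0 input, RLTR16C_MM without the D0 or D12 input or replicate 2, and IAPEY2_LTR without replicate 2 or 3 or any 1 input. IAPLTR4 lost it without replicate 2 or 3 or the D12 or D21 input. MERVL, an endogenous retrovirus active in early mouse embryos, stayed close to input at 44612 ± 1605 CPM in the averages and 44930 ± 1505 in input (SD, n = 3 each), a log2 ratio of 0.03 (edgeR adjusted p 0.593). MERVL was chosen after its values were seen.

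**Figure D5:**
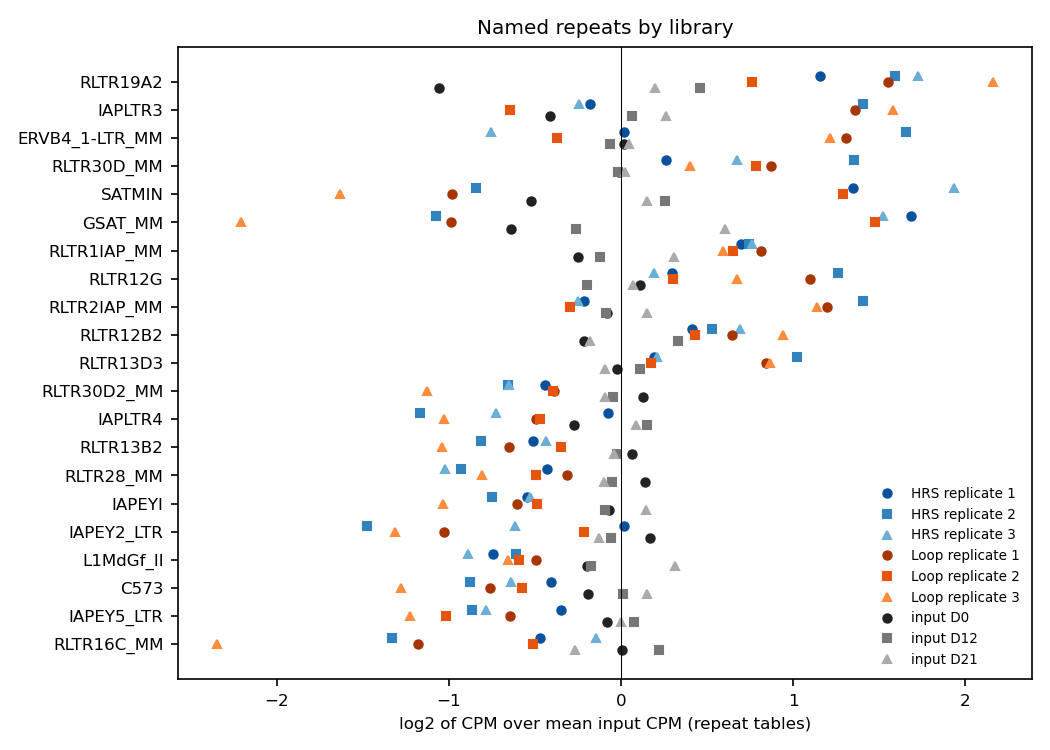
log2 of the CPM of each library over the mean input CPM in the repeat tables, for the 21 named repeats ordered by the log2 ratio of the averages. Names with all fraction symbols to 1 side of the grey input symbols, as for RLTR1IAP_MM and IAPEYI, differ from those split between file letters, as for RLTR2IAP_MM, SATMIN and GSAT_MM.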

How the data were processed

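Per the labels' protocols, a biotinylated adaptor was ligated to StyI-cut DNA of each fraction, and MmeI released short tags that were sequenced. The deposited values are whole-number counts over StyI fragments (3053721 used, median 539 bp) and, in a second table per library, over 312 Repbase names. The submitters' processing notes name CASAVA 1.8.2 and the genome build mm9. The aligner, and how tags matching several places were handled, is not given in the sources used here. Whether coordinates count from 0 or 1 is not stated either, and bins are numbered from 1. The 21 last intervals of the chromosomes were left out.

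Counts were summed by fragment midpoint into 10 kb bins, and CPM used each table's own total. The average of HRS and Loop of 1 number was put back on the count scale with the summed total of both libraries, so that it is not a whole number. Fits used edgeR 4.0.16 in R 4.3.3 (quasi-likelihood, TMM, filterByExpr with a minimum count of 10, Benjamini-Hochberg adjusted p of 0.05, two-sided). Sums over chromosomes, length classes and density classes used library totals. Standard errors are the log2 ratio over the square root of F. The length correction took 20 length classes, and the expected count of a bin entered as an offset. Alternatives included DESeq2 1.42.0, limma 3.58.1 on log2(CPM + 0.5), all 9 libraries in 1 fit, and each replicate number or input left out. Bins of 1 Mb, the corrected fits with a replicate or input left out and the corrected density classes were added after the data were seen.

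Same-numbered HRS and Loop libraries deviated from their group means together, with correlations of 0.168, 0.104 and 0.230, each above 0.1, although HRS replicate 2 and Loop replicate 1 reached 0.117. The numbers were taken from the titles and read as pairs. The correlations do not establish this for numbers 1 and 2, since HRS replicate 2 went more with Loop replicate 1 than with Loop replicate 2. Named bins were the 10 strongest regions per direction with all 6 fraction libraries on 1 side of all inputs and at least the median mean CPM. To these were added the 10 strongest without a fragment of over 50% of the counts and called after length correction, and the 5 longest runs. Chromosomes named were the 3 highest and 3 lowest, 8 and 11, and repeats up to 10 per direction and both satellites. The members and lists were chosen with earlier results of these data known.

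The fits of the averages to bins and to repeat names were tested on simulated data for the 9 libraries, averaged as above (233102 bins and 292 names); the sums over classes and the fits of HRS against Loop were not. Of changed bins, 37.3% were recovered at 1.5-fold, 91% at 2-fold and 100% at 4-fold, and 0.00258% of unchanged bins were called. For repeat names recovery was 50%, 90% and 100%, and 0.763% of unchanged names were called. The simulation changed only 67, 67 and 66 bins at these folds, and 10 names at each. In the data 23.5% of bins and 29.4% of names were called. The rates therefore describe the simulation and do not carry over to the calls above. Recovery was not tested separately where HRS and Loop differed, as in 39.0% of the bins tested between them, or where file letters did. At these totals the 95% Wilson half-width of a share was at most 0.45% of its value, which covers counting error only, since tags without molecular identifiers are not independent molecules.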

Additional observations from a re-analysis of the deposited data

How the results depend on the processing

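Depth was not the limit for sums over classes, but single bins of about 108 to 206 counts per library and 3 values against 3 limit small changes. Against 34450 higher and 20427 lower bins, the counts were 20387 and 7131 with fragment length corrected and 14647 and 3531 with fragments of up to 200 bp left out. They were 18552 and 6167 at an adjusted p of 0.01, 22600 and 38852 with library totals in place of TMM, which moves the median log2 ratio of all bins, and 28874 and 13236 with all 9 libraries in 1 fit. Limma, which was also fitted on library totals without TMM, gave 23359 and 42254 with a median log2 ratio of -0.10, and DESeq2 29722 and 17519. Larger bins test fewer features, with 4383 and 2470 calls at 100 kb and 398 and 255 at 1 Mb. Leaving out a replicate number or an input gave 17875 to 36659 higher and 8829 to 22070 lower bins. Leaving 1 fraction library out of the fit of all 9 gave 22849 to 32123 and 10522 to 15293, lowest without Loop replicate 2. Its lower calls were 12060 and 13608 without HRS replicate 1 or 2, and 12167 without Loop replicate 3. With length corrected, the counts were 18629 and 2919 without replicate 1, 21034 and 3943 without replicate 2, and 19924 and 8427 without replicate 3. They were 18870 and 5656 without the D0 input, 11129 and 1911 without D12, and 9215 and 1210 without D21. Of 502 values of the 17 higher named bins 498 kept their call and 4 lost it, and of 300 values of the 10 lower named bins 297 kept it and 3 lost it. None of these reversed. The bins at 20010001 on chromosome 8 and 55810001 on chromosome 12, whose counts all lie on 1 short fragment, gave no value with the leading or the short fragments left out and are not in that count for these settings. The named bins were chosen as the strongest calls in these same libraries, and the second list also by the length-corrected fit, which is 1 of the settings. That most of them kept the call was thus largely set by the choice. The cause of the other shifts was not tested.

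The fit of HRS against Loop with the replicate block called 48472 bins higher and 53759 lower, against 42237 and 48222 without it, and the block was the only pairing that could be fitted. No paired analysis was possible because the inputs carry no replicate number for the comparisons of fractions with input. With length corrected 20282 bins were lower in HRS than in Loop. Leaving out a replicate number gave 26662 to 47947 higher and 28955 to 53741 lower bins, lowest without replicate 1.

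Chromosomes called higher fell from 1 to 0 with TMM over the chromosomes, length correction, fragments of up to 200 bp left out, or the sum of counts in place of the average. Leaving out a replicate number or input gave 0 to 2 higher and 0 to 1 lower chromosomes. It gave 1 to 2 higher and 1 to 4 lower length classes, and 0 to 2 higher and 0 to 2 lower density classes. Summed counts gave 2 higher density classes. Length correction and leaving out short fragments gave 0 and 0, and length correction turned the log2 ratio of bins with 6 to 10 fragments to 0.03 and that of bins with over 30 to -0.02. Repeat names went from 50 higher and 36 lower to 33 and 13 at an adjusted p of 0.01 and to 10 and 9 with all 9 libraries in 1 fit. Leaving out a replicate number or input gave 38 to 47 higher and 25 to 32 lower names.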

Other observations

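Chromosomes X and Y were outside the comparisons above. Chromosome X held 2.16%, 2.13% and 2.0% of the counts in HRS replicates 1 to 3, 1.93%, 1.93% and 1.88% in Loop, and 1.92%, 1.97% and 1.95% in the D0, D12 and D21 inputs. HRS was above input and Loop overlapped it, and the averages were 1.03 times input. Chromosome Y held 0.0196%, 0.0196% and 0.0245% in HRS, 0.0174%, 0.0178% and 0.0224% in Loop, and 0.0162%, 0.0172% and 0.0187% in input. Replicate 3 was highest in both fractions, and the averages held 0.0202% ± 0.00282 against 0.0173% ± 0.00127 in input (SD, n = 3 each).

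After length correction the longest run of higher calls was 500 kb on chromosome 13 (23360001 to 23860000), where HRS held 670 ± 49.4 CPM, Loop 150 ± 3.43 and the inputs 185 ± 6.25 (SD, n = 3 for each group). The longest run of lower calls was 160 kb on chromosome 4 (152250001 to 152410000). It held 71.9, 84.1 and 64.9 CPM in HRS, 133, 141 and 140 in Loop, and 120, 133 and 134 in input, so that HRS was below input while Loop was at its level or above it.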
